A study of Mus musculus with 16 samples.

Results

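The comparison asked which transcripts differ when the oxygen sensor PHD2 is labelled as deleted, whether or not HIF2α is labelled as deleted with it. It set the 8 libraries of the PHD2-deficient groups against the 8 control libraries, in 1 model with the mouse line as a blocking factor. These 16 libraries, all those of the series, were chosen by their labels and not by any measured value. Bones of C57BL/6 mice aged 8 to 12 weeks were the tissue, and the study's design text calls the cells FACS sorted neutrophils, that is, cells separated by fluorescent antibodies. In the group P2KO, PHD2 was labelled as deleted with Vav:cre (Vav:cre-PHD2f/f), a Cre recombinase driven by the Vav promoter, which is active in all blood-forming cells and so not only in neutrophils. In the group P2H2KO, PHD2 and HIF2α were labelled as deleted together with the same Cre (Vav:cre-PHD2/HIF2ff/ff). The controls P2WT and P2H2WT were labelled as wild type, and the labels do not say whether they carried floxed alleles or the Cre. Both deficient groups thus share the label of PHD2 deletion, and with it Vav:cre and floxed alleles. If the controls lacked these, their effects cannot be told apart from those of PHD2 loss. Each group held 4 libraries. The titles carry the suffixes m and f, with 3 m and 1 f in P2KO and P2H2WT and 2 of each in P2WT and P2H2KO. The labels do not state that each library came from a separate mouse, so p-values measure the spread between these libraries.

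PHD2, encoded by Egln1, uses oxygen to hydroxylate prolines on the α subunits of the hypoxia-inducible factors HIF1 and HIF2, which marks them for destruction through the von Hippel-Lindau protein. Without PHD2 the α subunits can persist in the presence of oxygen, pair with ARNT and bind short DNA elements near genes of glucose uptake, glycolysis, mitochondrial turnover and the oxygen-sensing machinery itself. Neutrophils draw most of their energy from glycolysis, and HIF1α is encoded by Hif1a and HIF2α by Epas1.

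Library totals lay between 23450746 and 28601284 counts, and the first principal component, with 27.1% of the variance, separated the lines and not the genotypes. All 12 neutrophil markers examined were detected in every library, with a summed level of 32891 to 83063 CPM (counts relative to scaled library size). The 21 erythroid markers measured summed to 30578 to 62052 CPM, in the same range, with neither sum scaled by gene length. In bulk RNA, fewer cells of a type cannot be told apart from less RNA per cell. The library P2KO 9 stood apart, at the far end of the first component, and results that rest on it are given with and without it below. P2KO 9 is also the only P2KO library with the suffix f, so fits without it hold P2KO libraries of suffix m alone. On the second component, with 18.6% of the variance, all libraries with the suffix f lay below 0. Of those with the suffix m, only P2KO 6 (-14.0) did.

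The targeted genes did not check the labels: each count covers a whole gene, deleted exons and others together. Egln1 was at 48.9, 45.9, 51.3 and 48.4 CPM in P2WT, 47.5, 49.1, 58.4 and 43.2 in P2KO, 53.3, 47.9, 53.1 and 54.6 in P2H2WT and 49.2, 50.3, 58.8 and 54.3 in P2H2KO. The groups overlapped in both lines, and the mean difference of 0.021 in log2(CPM + 1) had an exact two-sided permutation p of 0.722 over the 4900 relabellings within lines. Epas1 was at 8.94, 8.696, 11.1 and 11.3 CPM in P2WT, 7.58, 10.4, 6.76 and 24.4 in P2KO, 4.97, 3.47, 2.55 and 3.23 in P2H2WT and 3.42, 4.51, 6.29 and 8.39 in P2H2KO. It overlapped between genotypes in both lines as well (difference 0.31, exact permutation p 0.229), and the libraries labelled as lacking HIF2α were not lower than their controls. Hif1a was at 90.7, 81.6, 119.98 and 105 CPM in P2WT, 72.6, 73.3, 90.5 and 73.03 in P2KO, 86.6, 79.02, 103 and 86.6 in P2H2WT and 71.9, 82.7, 109.8 and 84.7 in P2H2KO, with a difference of -0.19 and an exact permutation p of 0.0988. With erythroid and specific granule scores as covariates, edgeR called Hif1a lower (log2 fold change -0.21, adjusted p = 0.0212 over all genes). After adjustment over these 3 genes the exact permutation p-values were 0.722, 0.344 and 0.296. The smallest p that such a test can give is 0.000408. Because whole-gene counts cannot resolve deleted exons, every direction below rests on the labels of the libraries and not on a measured loss of Egln1.

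Of 14080 genes tested, 23 were called, that is, had an adjusted p under 0.05 by the quasi-likelihood test of edgeR with Benjamini-Hochberg adjustment over all genes tested, which is the source of every adjusted p below unless another tool is named. This is 0.163% of the genes tested. The called genes were 21 that were higher in the deficient libraries (0.149%) and 2 that were lower (0.0142%). The higher genes included enzymes of glycolysis and known HIF targets: Pfkl, Tpi1, Aldoc and Eno1 of glycolysis, Pdk1, Bnip3 and Ak4 of mitochondria, Egln3, Kdm3a and P4ha1 among the oxygen-dependent hydroxylases, and Ankrd37 and Mif. The lower ones were Siglec1, a macrophage lectin, and Kcnj10, a potassium channel. An unadjusted p under 0.05 was found for 544 genes (3.86%), with 274 higher (1.95%) and 270 lower (1.92%). The median log2 fold change of all genes was 0.0032. The plot of all genes shows the called genes against this background.

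**Figure D1:**
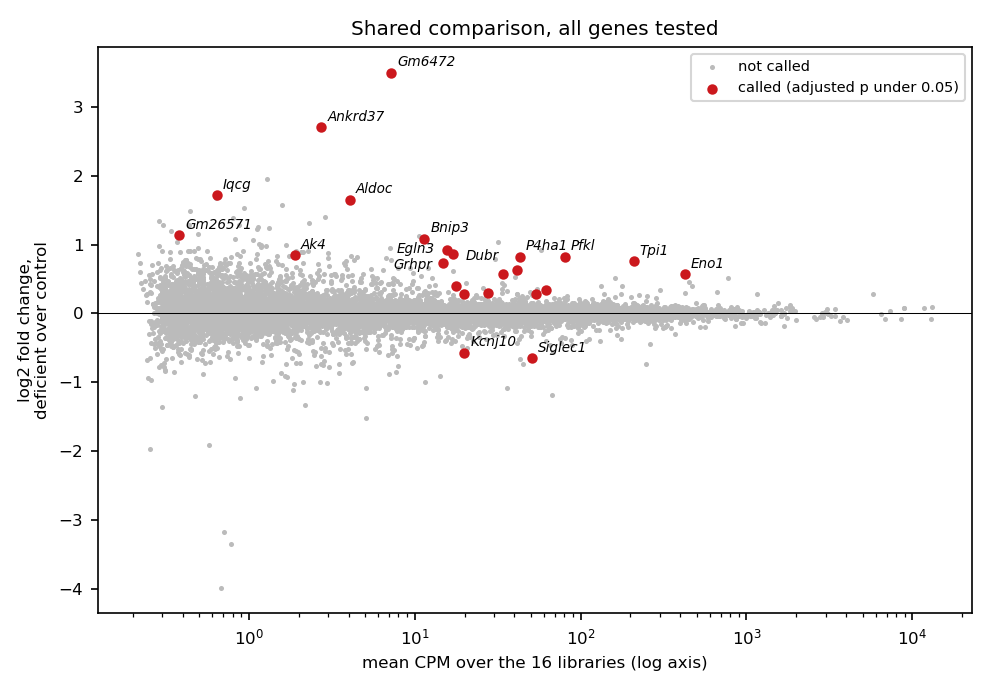
Log2 fold change of deficient over control libraries (vertical axis) against the mean CPM over the 16 libraries (horizontal log axis) for the 14080 genes tested. Grey points were not called and red points are the 23 called genes, of which 21 lie above 0 and 2, Siglec1 and Kcnj10, lie below.

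In the genes of the upper part of glycolysis, from glucose entry to triose phosphates, 3 of 12 were called higher and 5 had an unadjusted p under 0.05. All 12 log2 fold changes were above 0, with a median of 0.22, where 52.0% of all genes lay above 0. Values per library are given in the order of replicates 3, 4, 7 and 10 for P2WT, 1, 5, 6 and 9 for P2KO, 13, 14, 16 and 18 for P2H2WT, and 11, 12, 15 and 17 for P2H2KO, here and above, in CPM scaled by library size. Pfkl, the liver form of phosphofructokinase, which commits sugar to glycolysis, on chromosome 10 (77986947 to 78010083, minus strand), was at 56.7, 60.1, 60.7 and 55.4 CPM in P2WT, 100.4, 96.1, 101 and 90.8 in P2KO, 54.5, 56.5, 60.9 and 57.6 in P2H2WT and 102, 110.4, 120.4 and 100.03 in P2H2KO. Every deficient library lay above every control of its own line, and the shared difference was a 1.77-fold (95% interval 1.64 to 1.91) rise (log2 fold change 0.83, SE 0.0503 and edgeR adjusted p = 7.43e-08). Tpi1, triosephosphate isomerase, which interconverts the triose phosphates, on chromosome 6 (124810586 to 124814296, minus strand), was at 149, 146, 159.7 and 149.8 CPM in P2WT, 248, 240.01, 263 and 224 in P2KO, 154, 149, 172 and 159.5 in P2H2WT and 259, 279, 303 and 288 in P2H2KO. The groups did not overlap in either line (1.69-fold, 95% interval 1.57 to 1.83, log2 fold change 0.76, SE 0.0504 and edgeR adjusted p = 2.07e-07). Aldoc, the aldolase best known from brain, which splits fructose 1,6-bisphosphate, on chromosome 11 (78322968 to 78327781, plus strand), had the largest log2 fold change of the list and was at 2.03, 2.02, 1.897 and 1.95 CPM in P2WT, 5.04, 5.63, 5.81 and 5.95 in P2KO, 1.57, 1.55, 2.17 and 2.46 in P2H2WT and 5.71, 6.29, 8.62 and 6.45 in P2H2KO. The deficient libraries were again above all controls of their line (3.15-fold, 95% interval 2.65 to 3.74, log2 fold change 1.65, SE 0.116 and edgeR adjusted p = 3.66e-07).

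Slc2a1, the glucose transporter GLUT1, was just outside the threshold, at 18.9, 15.9, 22.2 and 23.3 CPM in P2WT, 27.01, 32.1, 47.3 and 22.3 in P2KO, 19.6, 22.95, 26.2 and 28.6 in P2H2WT and 32.8, 46.8, 58.9 and 42.6 in P2H2KO. Only P2KO 9 fell among the controls of its line (log2 fold change 0.79, SE 0.152 and edgeR adjusted p = 0.0502), and Slc2a1 is named here, as are Aldoa, Gapdh and Pgk1, after its values were seen. Without P2KO 9 it was called (log2 fold change 0.87, edgeR adjusted p = 0.0121). With all libraries Slc2a1 was called in 5 of the 10 other analyses of the full set, among them DESeq2 (adjusted p = 0.000343) and limma voom (adjusted p = 0.0148). Aldoa, the aldolase best known from muscle, had log2 fold change 0.51, SE 0.113 and edgeR adjusted p = 0.116, and was called in 2 of those 10 analyses.

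The lower part of glycolysis, from triose phosphates to lactate export, held 1 called gene among 11 tested, and 6 had an unadjusted p under 0.05. All 11 lay above 0, with a median of 0.28. Eno1, enolase, on chromosome 4 (150236721 to 150248879, plus strand), was at 302, 300.4, 327 and 356 CPM in P2WT, 461, 401, 589.9 and 352 in P2KO, 331, 296, 386 and 415 in P2H2WT and 480.2, 489, 652 and 638 in P2H2KO. The P2H2 groups were separate, whereas P2KO 9, at 352, lay among the P2WT values (1.49-fold, 95% interval 1.26 to 1.75, log2 fold change 0.57, SE 0.109 and edgeR adjusted p = 0.045). This call was the weakest of all: it held in 2 of the 16 fits that left out 1 library, with an adjusted p of up to 0.141 in the others. Eno1 also shares nearly identical sequence with Eno1b, at 99.5% over 1736 transcript bases, so reads may have been divided between them. Ldha, lactate dehydrogenase A, was at 374, 349, 410.1 and 435 CPM in P2WT, 476, 446, 616 and 438 in P2KO, 410.03, 388, 434 and 460.5 in P2H2WT and 521, 529, 623 and 649 in P2H2KO, with separate groups in both lines but no call (log2 fold change 0.40, SE 0.0806 and edgeR adjusted p = 0.0659). Of the 10 other analyses of the full set, 4 called Ldha, among them DESeq2 (adjusted p = 0.00106) and limma voom (adjusted p = 0.023). Gapdh and Pgk1, which follow triose phosphates, had log2 fold changes of 0.45 ± 0.105 (SE, edgeR adjusted p = 0.153) and 0.39 ± 0.109 (SE, edgeR adjusted p = 0.377). They were called in 2 and 1 of those 10 analyses. Without P2KO 9 the called members were 5 of 12 in the upper and 2 of 11 in the lower part, and 3 of the 11 then lay below 0. The medians without P2KO 9 were 0.30 in the upper and 0.35 in the lower part. The members nearest to 0 with all libraries were the lactate transporter gene Slc16a1 and its partner Bsg, at log2 fold changes of 0.0031 and 0.0016. With erythroid and specific granule scores as covariates, edgeR called 5 of 12 and 6 of 11 members, among the latter Ldha, Gapdh, Pgk1, Pkm and Slc16a3. With the monocyte and macrophage score it called 3 of 12 and 0 of 11, with 10 of 12 and 9 of 11 above 0. The medians with this score were 0.57 and 0.65, and 7 and 8 members were higher at an unadjusted p under 0.05. Among all genes, those higher at such a p went from 274 to 793.

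Enzymes on either side of glycolysis gave 0 calls in the shared comparison. The pentose phosphate list (8 tested, median 0.045), the bifunctional enzymes that set fructose 2,6-bisphosphate (5 tested, median -0.0049) and the citric acid cycle (20 tested, median -0.029) had 0 members at an unadjusted p under 0.05. The same was true of the 30 respiratory chain genes (median -0.020). Among 18 glycogen genes 1 had an unadjusted p under 0.05, Pgm1, a phosphoglucomutase, which was at 25.9, 27.2, 29.4 and 30.3 CPM in P2WT, 34.1, 31.9, 37.2 and 30.5 in P2KO, 31.3, 28.6, 33.8 and 33.8 in P2H2WT and 34.8, 36.7, 47.3 and 42.3 in P2H2KO. Its groups were separate in both lines but it was not called (log2 fold change 0.29, SE 0.0677 and edgeR adjusted p = 0.152). Pgm1 was called by DESeq2 (log2 fold change 0.29, adjusted p = 0.0214). With erythroid and specific granule scores as covariates edgeR called it too (0.28, adjusted p = 0.000181), together with Ppp1r3b, a glycogen-targeting subunit of protein phosphatase 1 (0.26, adjusted p = 0.042). Gys1, muscle glycogen synthase, had log2 fold change 0.15, SE 0.112 and edgeR adjusted p = 0.9995. Log2 fold changes of Pgls, a lactonase of the pentose phosphate pathway, Mdh1, cytosolic malate dehydrogenase, and Uqcrc2, a subunit of respiratory complex III, were -0.08, -0.07 and -0.06, each with an edgeR adjusted p of 0.9995.

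The gate between pyruvate and mitochondria was represented by 1 call among 12 genes. Pdk1, a kinase that switches off pyruvate dehydrogenase, on chromosome 2 (71873224 to 71903858, plus strand), was at 29.7, 36.4, 33.6 and 32.2 CPM in P2WT, 53.2, 47.03, 41.4 and 52.5 in P2KO, 35.5, 29.5, 34.9 and 28.4 in P2H2WT and 51.1, 50.5, 56.7 and 49.7 in P2H2KO. All deficient libraries exceeded all controls of their line (1.54-fold, 95% interval 1.39 to 1.71, log2 fold change 0.63, SE 0.068 and edgeR adjusted p = 0.000108). The other kinase genes were not called: Pdk3, for example, had log2 fold change 0.10, SE 0.0443 and edgeR adjusted p = 0.9995. The list median was -0.012, with 8 of 12 members below 0, and none of the subunits of the complex was called. Bnip3, a receptor that marks mitochondria for autophagy, on chromosome 7 (138890836 to 138909519, minus strand), was the called member of 8 mitochondrial HIF targets tested. It was at 7.25, 5.82, 6.13 and 7.64 CPM in P2WT, 12.1, 11.5, 16.05 and 12.4 in P2KO, 8.77, 6.77, 7.74 and 8.2002 in P2H2WT and 16.4, 19.8, 18.5 and 18.4 in P2H2KO. The groups were separate in both lines (2.12-fold, 95% interval 1.86 to 2.43, log2 fold change 1.09, SE 0.0893 and edgeR adjusted p = 3.49e-06), and Bnip3 has pseudogenes of up to 98.9% identity that were not tested here. Fam162a, another hypoxia-responsive mitochondrial gene, had log2 fold change 0.20, SE 0.0665 and edgeR adjusted p = 0.719. Ak4, an adenylate kinase of the mitochondrial matrix, on chromosome 4 (101419277 to 101466995, plus strand), was at 1.503, 1.05, 1.304 and 1.298 CPM in P2WT, 1.73, 2.45, 1.6995 and 2.42 in P2KO, 1.54, 1.51, 1.24 and 1.33 in P2H2WT and 2.55, 3.38, 3.23 and 2.07 in P2H2KO. Its deficient libraries were above the controls of each line (1.796-fold, 95% interval 1.46 to 2.201, log2 fold change 0.84, SE 0.136 and edgeR adjusted p = 0.0118).

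Among 18 genes of the oxygen-sensing machinery 1 was called. Egln3, which encodes PHD3, a relative of PHD2 and itself a HIF target, on chromosome 12 (54178981 to 54203860, minus strand), was at 10.1, 9.71, 10.2 and 11.5 CPM in P2WT, 18.4, 15.6, 22.1 and 13.4 in P2KO, 12.1, 10.3, 11.3 and 11.2 in P2H2WT and 20.1, 26.5, 25.0001 and 23.7 in P2H2KO. The groups were separate in both lines (1.88-fold, 95% interval 1.63 to 2.18, log2 fold change 0.91, SE 0.0986 and edgeR adjusted p = 0.000108). The list median was 0.0011, with 10 members above and 8 below 0. P4ha1, the catalytic subunit of collagen prolyl 4-hydroxylase, on chromosome 10 (59323296 to 59373304, plus strand), was the called member of 10 collagen hydroxylases, at 32.9, 33.2, 33.5 and 27.04 CPM in P2WT, 52.6, 54.7, 53.4 and 43.9 in P2KO, 26.4, 30.3, 33.2 and 31.6 in P2H2WT and 53.8, 57.9, 69.5 and 55.1 in P2H2KO. No deficient library reached down to its controls (1.77-fold, 95% interval 1.58 to 1.99, log2 fold change 0.83, SE 0.0778 and edgeR adjusted p = 2.10e-05). Among 11 histone demethylases the call was Kdm3a, which removes methyl groups from lysine 9 of histone H3, on chromosome 6 (71588972 to 71632990, minus strand), at 55.6, 56.4, 47.9 and 51.2 CPM in P2WT, 61.7, 64.02, 59.9 and 57.9 in P2KO, 42.3, 45.5, 44.7 and 45.1 in P2H2WT and 55.5, 61.4, 54.1 and 56.5 in P2H2KO. The rise was small, with groups separate in both lines (1.22-fold, 95% interval 1.13 to 1.303, log2 fold change 0.28, SE 0.0465 and edgeR adjusted p = 0.014). Kdm4b, the next member, had log2 fold change 0.18, SE 0.0475 and edgeR adjusted p = 0.291.

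Of 21 other HIF targets tested, 3 were called, Ankrd37, Mif and Ak4, and 16 lay above 0 with a median of 0.074. Ankrd37, an ankyrin repeat protein gene known as a hypoxia marker, on chromosome 8 (45996902 to 46005707, minus strand), was at 0.789, 0.526, 0.593 and 0.721 CPM in P2WT, 3.75, 4.76, 3.99 and 4.95 in P2KO, 0.859, 0.837, 0.697 and 0.768 in P2H2WT and 4.28, 6.17, 4.71 and 5.502 in P2H2KO. The lowest deficient library was several times the highest control (6.54-fold, 95% interval 5.51 to 7.77, log2 fold change 2.71, SE 0.115 and edgeR adjusted p = 4.11e-10). Mif, the macrophage migration inhibitory factor, on chromosome 10 (75859353 to 75860240, minus strand), was at 27.8, 25.04, 30.2 and 23.8 CPM in P2WT, 38.8, 42.1, 35.9 and 39.2 in P2KO, 29.2, 28.5, 32.8 and 22.9 in P2H2WT and 42.7, 43.6, 41.9 and 44.7 in P2H2KO. Its groups were separate in both lines (1.49-fold, 95% interval 1.35 to 1.65, log2 fold change 0.58, SE 0.0666 and edgeR adjusted p = 0.000223), and it has near-identical pseudogenes that were not tested. The list also held members below 0, the lowest at -0.67, and 2 of its members were lower at an unadjusted p under 0.05.

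The stretches of 250 bases before the start of 5 of these genes are shown because they hold the core of the HIF response element, ACGTG, in the genes that rose, and because Zfp292, a gene not on any list, held it most often. They come from RefSeq on GRCm38.p6, run 5′ to 3′ on the strand of the gene and end at the base before the start. Capitals mark ACGTG and GCGTG on either strand, the reverse strand appearing as CACGT and CACGC. The regions are chr8:45999851-46000100 (minus strand) for Ankrd37, chr7:138909507-138909756 (minus strand) for Bnip3, chr12:54203875-54204124 (minus strand) for Egln3, chr10:59323046-59323295 (plus strand) for P4ha1 and chr4:34882949-34883198 (minus strand) for Zfp292.
Ankrd37: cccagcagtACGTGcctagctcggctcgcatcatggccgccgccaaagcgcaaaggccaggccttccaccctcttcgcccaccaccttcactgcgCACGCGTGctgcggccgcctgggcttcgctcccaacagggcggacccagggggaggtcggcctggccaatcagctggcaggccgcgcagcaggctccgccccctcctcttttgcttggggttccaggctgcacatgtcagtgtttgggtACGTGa
Bnip3: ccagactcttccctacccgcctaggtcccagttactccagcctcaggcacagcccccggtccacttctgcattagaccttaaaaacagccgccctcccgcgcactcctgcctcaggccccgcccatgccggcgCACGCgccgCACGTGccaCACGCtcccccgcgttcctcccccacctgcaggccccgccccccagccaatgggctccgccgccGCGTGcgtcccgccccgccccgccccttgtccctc
Egln3: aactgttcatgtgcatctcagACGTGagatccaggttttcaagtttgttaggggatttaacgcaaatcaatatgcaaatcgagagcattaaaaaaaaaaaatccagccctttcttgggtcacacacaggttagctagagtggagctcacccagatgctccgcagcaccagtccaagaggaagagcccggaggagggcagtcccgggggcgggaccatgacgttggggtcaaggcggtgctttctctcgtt
P4ha1: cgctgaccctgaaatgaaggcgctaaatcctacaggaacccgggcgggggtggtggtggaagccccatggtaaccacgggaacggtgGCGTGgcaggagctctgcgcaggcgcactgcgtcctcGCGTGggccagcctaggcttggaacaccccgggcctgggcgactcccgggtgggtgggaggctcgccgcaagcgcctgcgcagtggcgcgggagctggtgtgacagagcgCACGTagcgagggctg
Zfp292: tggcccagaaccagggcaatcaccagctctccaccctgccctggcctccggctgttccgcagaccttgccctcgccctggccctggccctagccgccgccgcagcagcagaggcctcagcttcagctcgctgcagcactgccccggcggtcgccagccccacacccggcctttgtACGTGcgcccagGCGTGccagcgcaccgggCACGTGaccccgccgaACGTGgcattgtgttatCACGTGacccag

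Ankrd37 held ACGTG at 6 and at 241 bases before the start, and Bnip3 held the palindrome CACGTG, read as ACGTG on both strands, at 107. Egln3 held it once, at 229, and P4ha1 once, on the reverse strand, at 16. Zfp292 held 6 readings of ACGTG within 75 bases of the start, among them 2 palindromes. Promoters were found for 19 of the 21 higher called genes, some with several starts. ACGTG on either strand lay in 7 of the 19 (36.8%), against 24.7% of 10324 tested genes with a promoter and 16.6% of all 32851 promoters of this length. GCGTG lay in 11 of the 19 (57.9%), against 48.8% of tested genes and 28.2% of all promoters. CACGTG, which is contained in ACGTG matches, lay in 3 of 19 (15.8%), against 9.74% and 6.02%. Genes with several starts had more windows to match, and a match describes letters only.

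Ankrd37 lies beside another called gene. Snx25, which encodes a sorting nexin, lies on chromosome 8 (46033261 to 46152159, minus strand), with its 3′ end and not its start 27554 bases from Ankrd37. Snx25 was at 28.1, 26.2, 24.5 and 26.8 CPM in P2WT, 29.3, 32.01, 31.6 and 34.1 in P2KO, 24.7, 24.7, 22.3 and 22.1 in P2H2WT and 27.8, 32.6, 29.8 and 27.3 in P2H2KO. It rose little but without overlap in either line (1.23-fold, 95% interval 1.14 to 1.32, log2 fold change 0.30, SE 0.0496 and edgeR adjusted p = 0.0155). Ufsp2, a protease gene on the other side of Ankrd37 that shares 57 exon bases with Ankrd37 on the opposite strand, was not called (log2 fold change 0.33, SE 0.065 and edgeR adjusted p = 0.0548). Ufsp2 is named here for its position and after its values were seen. Whether strand was used in counting is not given in the sources used here, so reads over the shared bases cannot be told apart.

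The largest log2 fold change among the called genes was that of Gm6472, annotated as a transcribed processed pseudogene, on chromosome X (152909505 to 152910155, minus strand). It was at 1.09, 1.01, 1.07 and 1.12 CPM in P2WT, 13.7, 13.4, 10.5 and 12.1 in P2KO, 1.396, 1.39, 1.32 and 0.969 in P2H2WT and 14.6, 13.1, 13.9 and 14.7 in P2H2KO. The deficient libraries were 11.3-fold (95% interval 9.95 to 12.8) higher (log2 fold change 3.49, SE 0.0837 and edgeR adjusted p = 9.04e-14). Its 651 bases are 99.4% identical to the transcript of the ribosomal protein gene Rps7, which was not called: Rps7 was at 244, 247, 251 and 234 CPM in P2WT, 244, 228, 182 and 229.9 in P2KO, 280.4, 258, 289.8 and 246 in P2H2WT and 269, 247, 250.3 and 268 in P2H2KO (log2 fold change -0.10, SE 0.0581 and edgeR adjusted p = 0.9995). Assignment between the copies is uncertain for such sequence, and Rps7 is named here after its values were seen.

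The remaining higher genes stood outside the glycolysis and HIF lists. Grhpr, glyoxylate and hydroxypyruvate reductase, on chromosome 4 (44981395 to 44990734, plus strand), was at 11.3, 11.7, 9.96 and 10.7 CPM in P2WT, 18.2, 17.5, 15.6 and 18.8 in P2KO, 12.4, 13.03, 9.95 and 9.98 in P2H2WT and 20.9, 20.2, 16.3 and 20.5 in P2H2KO. Its groups were separate in both lines (1.66-fold, 95% interval 1.49 to 1.85, log2 fold change 0.73, SE 0.0739 and edgeR adjusted p = 5.05e-05). Dubr, a long noncoding RNA, on chromosome 16 (50719294 to 50732773, minus strand), was at 11.8, 10.8, 13.4 and 13.95 CPM in P2WT, 17.4, 17.3, 33.4 and 16.3 in P2KO, 10.7, 10.2, 12.8 and 13.7 in P2H2WT and 19.3, 21.6, 25.1 and 26.7 in P2H2KO. Separation held in both lines, and P2KO 6 was far above the other P2KO libraries (1.81-fold, 95% interval 1.47 to 2.24, log2 fold change 0.86, SE 0.14 and edgeR adjusted p = 0.0124). Zfp292, a zinc finger gene, on chromosome 4 (34803113 to 34882960, minus strand), was at 61.4, 58.1, 54.7 and 62.003 CPM in P2WT, 66.6, 68.3, 83.2 and 72.8 in P2KO, 52.2, 50.6, 47.99 and 53.1 in P2H2WT and 62.6, 69.4, 72.9 and 60.6 in P2H2KO, a small difference with separate groups (1.27-fold, 95% interval 1.17 to 1.37, log2 fold change 0.34, SE 0.0547 and edgeR adjusted p = 0.0118).

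Trappc6a, a subunit of the TRAPP vesicle tether, on chromosome 7 (19508395 to 19516145, plus strand), was at 13.8, 11.9, 16.04 and 14.9 CPM in P2WT, 20.3, 17.2, 18.8 and 19.4 in P2KO, 16.4, 14.8, 17.6 and 17.5 in P2H2WT and 19.3, 20.4, 25.1 and 22.01 in P2H2KO. The groups were separate in both lines (1.32-fold, 95% interval 1.19 to 1.47, log2 fold change 0.40, SE 0.0688 and edgeR adjusted p = 0.0164), with the call kept in 13 of 16 fits that left out 1 library. Apba3, whose protein, also called Mint3, binds the HIF inhibitor FIH, on chromosome 10 (81266960 to 81273246, plus strand), was at 18.9, 16.4, 18.9 and 17.3 CPM in P2WT, 20.8, 19.8, 22.9 and 18.97 in P2KO, 18.2, 17.4, 17.6 and 18.8 in P2H2WT and 21.5, 23.9, 24.3 and 22.6 in P2H2KO. It separated by little (1.21-fold, 95% interval 1.12 to 1.31, log2 fold change 0.28, SE 0.0521 and edgeR adjusted p = 0.0376) and was called in 4 of those 16 fits. Iqcg and Gm26571, both under the 1 CPM minimum of the naming rule or excluded by it as a provisional name, are named because they complete the called genes. Iqcg, an IQ motif gene, on chromosome 16 (33012683 to 33056218, minus strand), was at 0.376, 0.121, 0.277 and 0.1802 CPM in P2WT, 0.773, 0.932, 1.23 and 1.23 in P2KO, 0.322, 0.438, 0.271 and 0.404 in P2H2WT and 1.43, 0.685, 1.01 and 0.631 in P2H2KO (3.296-fold, 95% interval 2.29 to 4.75, log2 fold change 1.72, SE 0.244 and edgeR adjusted p = 0.00294). Gm26571, an antisense transcript, on chromosome 12 (83945209 to 83951355, minus strand), was at 0.188, 0.283, 0.158 and 0.252 CPM in P2WT, 0.405, 0.3798, 0.632 and 0.422 in P2KO, 0.179, 0.199, 0.426 and 0.202 in P2H2WT and 0.649, 0.524, 0.647 and 0.541 in P2H2KO (2.19-fold, 95% interval 1.61 to 2.98, log2 fold change 1.13, SE 0.205 and edgeR adjusted p = 0.0306). Both were separate between genotypes in both lines, at levels under 2 CPM. They share 2965 and 748 exon bases with Lrch3 and Riox1 on the opposite strand, which were not called (log2 fold changes 0.0095 and 0.072). Gm26571 was called in 4 of the 16 fits without 1 library.

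**Figure D2:**
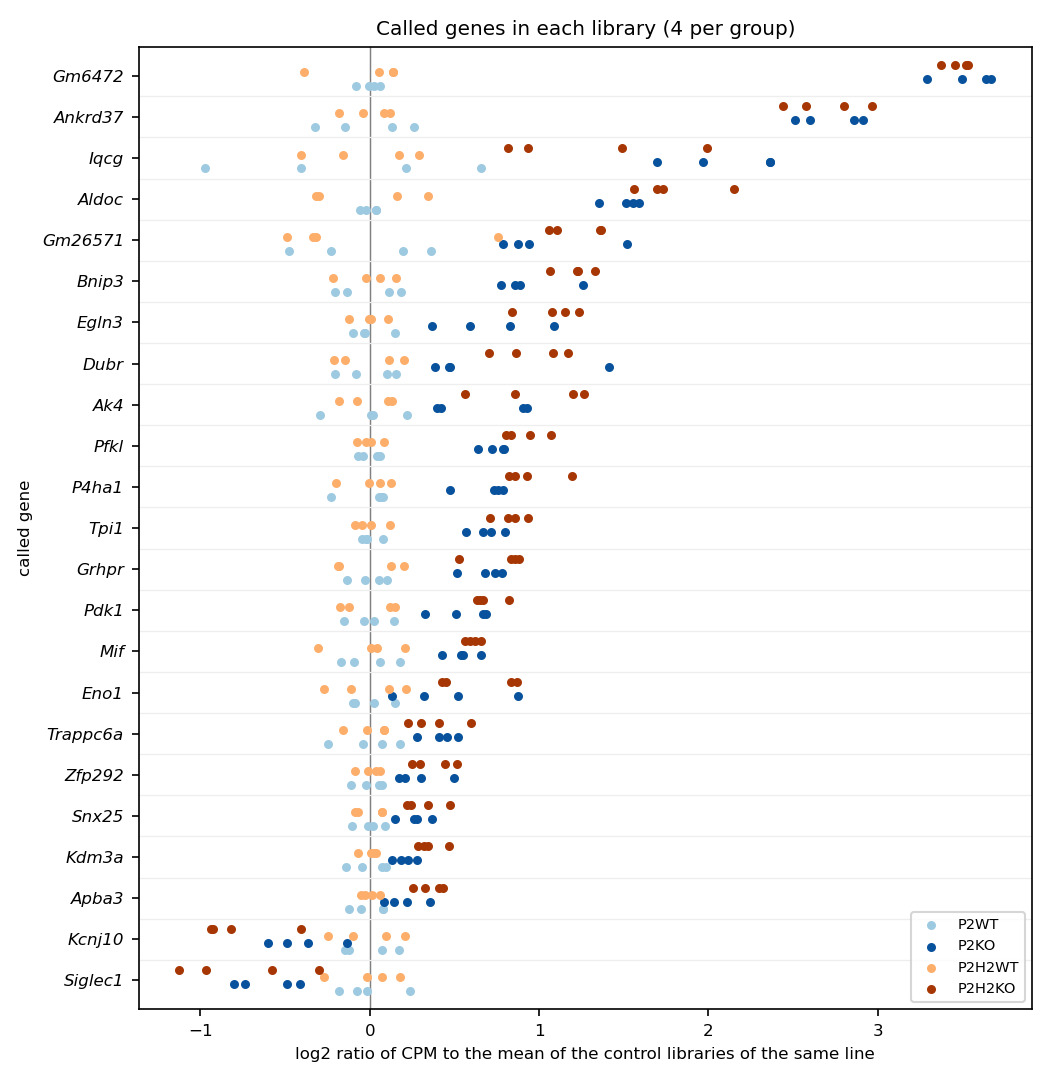
Log2 ratio of the CPM of each library to the mean of the 4 control libraries of its own line (horizontal axis) for the 23 called genes (vertical axis), with 1 point per library and colours for the groups. In 20 of the 21 higher genes the dark points of the deficient libraries lie to the right of all pale points of their line, and Eno1 is the exception.

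Siglec1, sialoadhesin, a lectin of tissue macrophages, on chromosome 2 (131069220 to 131086765, minus strand), was 1 of the 2 lower called genes. It was at 61.01, 68.6, 65.6 and 81.8 CPM in P2WT, 49.3, 39.7, 41.5 and 52.1 in P2KO, 45.6, 57.9, 54.2 and 62.1 in P2H2WT and 25.2, 28.1, 36.8 and 44.7 in P2H2KO. Every deficient library lay below every control of its line (log2 fold change -0.65, SE 0.11 and edgeR adjusted p = 0.016), and the call held in all 16 fits without 1 library, with an adjusted p of up to 0.0493. Kcnj10, an inward-rectifier potassium channel, on chromosome 1 (172341210 to 172374085, plus strand), was at 22.1, 25.3, 21.7 and 27.1 CPM in P2WT, 18.7, 17.2, 15.9 and 21.9 in P2KO, 21.8, 26.98, 19.7 and 24.96 in P2H2WT and 13.2, 12.3, 12.2 and 17.6 in P2H2KO. The groups were separate in the P2H2 line and met in the P2 line through P2KO 9 at 21.9 (log2 fold change -0.57, SE 0.104 and edgeR adjusted p = 0.0328), and the call held in 6 of the 16 fits without 1 library.

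Siglec1 was the only called member of 20 monocyte and macrophage markers, of which 11 were lower at an unadjusted p under 0.05 and 19 lay below 0, as did 48.0% of all genes, with a median of -0.25. The 11 included the complement genes C1qa, C1qb and C1qc, the receptors for dying cells Axl and Mertk, the adhesion molecule Vcam1, the mannose receptor Mrc1 and the macrophage antigen Adgre1. C1qc was at 90.5, 94.9, 88.3 and 109 CPM in P2WT, 77.7, 69.5, 57.7 and 94.6 in P2KO, 78.4, 93.3, 72.8 and 75.1 in P2H2WT and 57.2, 52.8, 45.8 and 69.2 in P2H2KO (log2 fold change -0.43, SE 0.101 and edgeR adjusted p = 0.153). Axl was at 198, 228, 206 and 226 CPM in P2WT, 184, 152, 141 and 218 in P2KO, 176, 211, 161 and 174 in P2H2WT and 125, 125, 116 and 164 in P2H2KO (log2 fold change -0.38, SE 0.0948 and edgeR adjusted p = 0.233). In both genes P2KO 9 was the highest of its group and overlapped the controls. The P2H2 groups were separate for C1qc and overlapped for Axl. Of the 10 other analyses of the full set, 2 called C1qc lower, DESeq2 (adjusted p = 0.0133) and limma voom (adjusted p = 0.0316). For Axl 1 of the 10 did, DESeq2 (adjusted p = 0.0339). Vcam1 was at 309, 359, 308 and 341 CPM in P2WT, 262, 239, 188 and 347 in P2KO, 300.2, 362, 218 and 217 in P2H2WT and 202, 179, 146 and 231 in P2H2KO, with overlap in both lines (log2 fold change -0.44, SE 0.135 and edgeR adjusted p = 0.569).

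The same list also held Ly6c2, a surface antigen of inflammatory monocytes, which was at 505, 483, 650.4 and 621 CPM in P2WT, 503, 445, 612 and 329 in P2KO, 576, 417, 829.7 and 769 in P2H2WT and 463, 479, 943 and 799 in P2H2KO (log2 fold change -0.10, SE 0.181 and edgeR adjusted p = 0.9995). F13a1, coagulation factor XIII, was at 756, 732, 1041 and 731 CPM in P2WT, 752, 757, 904 and 419 in P2KO, 876, 561, 1413 and 1016 in P2H2WT and 622, 907, 1454 and 971 in P2H2KO (log2 fold change -0.09, SE 0.201 and edgeR adjusted p = 0.9995). Both genes overlapped between genotypes in both lines. The list as a whole summed to 3645 to 4337 CPM in P2WT, 2951 to 3513 in P2KO, 3340 to 5031 in P2H2WT and 2992 to 5200 in P2H2KO, so its total separated the genotypes in the P2 line only, and all 20 markers were detected in every library. With the mean log2 CPM of the list as a covariate the log2 fold change of Siglec1 was -0.18 (edgeR adjusted p = 0.482), a covariate that contains Siglec1 itself. Without P2KO 9, 3 members were called lower and the median was -0.30. The macrophage genes other than Siglec1 are named after their values were seen.

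**Figure D3:**
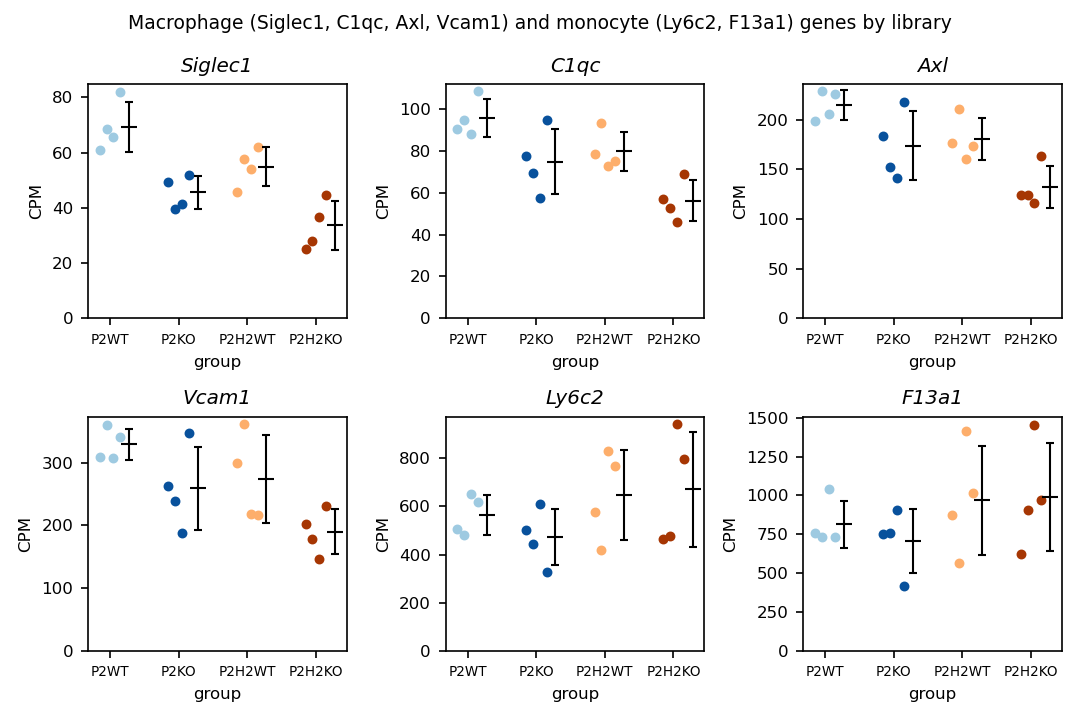
CPM of 4 macrophage genes (Siglec1, C1qc, Axl, Vcam1) and 2 monocyte genes (Ly6c2, F13a1) in each library, by group. Points are libraries, and the black mark and bar are the mean and SD of 4. Siglec1 was separate in both lines (39.7 to 52.1 CPM in P2KO against 61.0 to 81.8 in P2WT), whereas Ly6c2 and F13a1 overlapped.

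The interferon-response list lay in the same direction without a call. All 21 genes lay below 0, with a median of -0.25, and 8 had an unadjusted p under 0.05. Usp18, which restrains interferon signalling, was at 23.3, 20.5, 24.6 and 31.8 CPM in P2WT, 21.3, 20.99, 20.7 and 16.7 in P2KO, 20.9, 26.8, 22.2 and 33.8 in P2H2WT and 13.6, 17.6, 22.5 and 20.7 in P2H2KO (log2 fold change -0.40, SE 0.122 and edgeR adjusted p = 0.55). Ifit3, an antiviral effector, was at 7.44, 5.91, 9.01 and 16.2 CPM in P2WT, 6.55, 4.63, 5.34 and 4.26 in P2KO, 5.55, 6.85, 9.75 and 18.7 in P2H2WT and 2.899, 3.99, 9.27 and 6.95 in P2H2KO (log2 fold change -0.85, SE 0.283 and edgeR adjusted p = 0.716). Both overlapped between genotypes in both lines. Without P2KO 9, 4 of the 21 had an unadjusted p under 0.05, and with the monocyte and macrophage score as a covariate 18 of 21 lay above 0. That score also moved the medians of other lists. Neutrophil markers went from 0.077 to 0.36, erythroid from 0.021 to -0.41, B cell from -0.17 to -0.86 and endothelial from 0.45 to 0.98. The megakaryocyte median went from 0.49 to 0.47. Upper glycolysis went from 0.22 to 0.57 and lower glycolysis from 0.28 to 0.65. Genes with an unadjusted p under 0.05 went from 544 to 1600. The cause of the interferon shift was not tested.

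Markers of T and NK cells (20 tested, median -0.16, 6 lower and 1 higher at an unadjusted p under 0.05) and of B cells (16 tested, median -0.17, all 16 below 0, 0 at an unadjusted p under 0.05) gave 0 calls. The B cell median was 0.027 in the P2 line and -0.32 in the P2H2 line. Eosinophil, basophil and mast cell markers (15 tested, median -0.058, 13 below 0, 0 at an unadjusted p under 0.05) gave 0 calls. They summed to 3230 to 6790 CPM per library. Without P2KO 9, 14 of these 15 lay below 0 and 2 were lower at an unadjusted p under 0.05. Endothelial markers (16 tested, 14 above 0, median 0.45, 6 at an unadjusted p under 0.05) and megakaryocyte markers (12 tested, all 12 above 0, median 0.49, 1 at an unadjusted p under 0.05) lay higher, also with 0 calls. P2KO 9 had the highest sum of both among the 16 libraries. Its endothelial markers summed to 255 CPM, against 112 to 149 in the other P2KO libraries and 135 to 143 in P2WT. Its megakaryocyte markers summed to 390 CPM, against 129 to 213 and 124 to 255. Without P2KO 9 the medians were 0.22 and 0.18, with 13 of 16 and 12 of 12 genes above 0. At an unadjusted p under 0.05, 0 endothelial genes were then higher and 1 was lower, and 1 megakaryocyte gene was higher. The P2H2 line, which does not contain P2KO 9, had medians of 0.38 and 0.46, against 0.44 and 0.46 in the P2 line. With all libraries and the suffix as a covariate, edgeR called the megakaryocyte marker Selp higher (log2 fold change 0.74, adjusted p = 0.0139). Among all cell type markers, Sox17 was at 0 in 5 libraries and Bglap in 1.

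Functions of neutrophils as such gave 0 calls and 0 genes at an unadjusted p under 0.05. These were the azurophilic granule (8 tested, median 0.041), the specific granule (15 tested, median 0.064), mature neutrophil genes (14 tested, median 0.079), adhesion and chemotaxis (21 tested, median 0.025) and actin contractility (30 tested, median 0.0091). The same held for 22 cell cycle genes (median 0.0041) and 21 erythroid genes (median 0.021). In each of these lists the medians of the P2 and the P2H2 line lay on opposite sides of 0. They were -0.089 and 0.18 for the azurophilic granule, -0.019 and 0.13 for the specific granule and -0.0090 and 0.18 for mature neutrophil genes. For erythroid genes they were 0.14 and -0.12, and for cell cycle genes 0.073 and -0.065. Itgam, the αM chain of the integrin Mac-1, was at 209, 201, 197 and 277 CPM in P2WT, 212, 176, 357 and 162 in P2KO, 222, 195, 215 and 294 in P2H2WT and 220.01, 202, 315 and 319 in P2H2KO (log2 fold change 0.11, SE 0.159 and edgeR adjusted p = 0.9995). Itgb1, the integrin β1 chain, had log2 fold change 0.07, SE 0.0425 and edgeR adjusted p = 0.9995. Il1b, which encodes interleukin 1β, had log2 fold change 0.52, SE 0.314 and edgeR adjusted p = 0.9995. Itgam and Il1b overlapped between genotypes in both lines, and a p that misses the threshold does not show equality. The plot of gene lists sets each list beside the interquartile range of all genes.

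**Figure D4:**
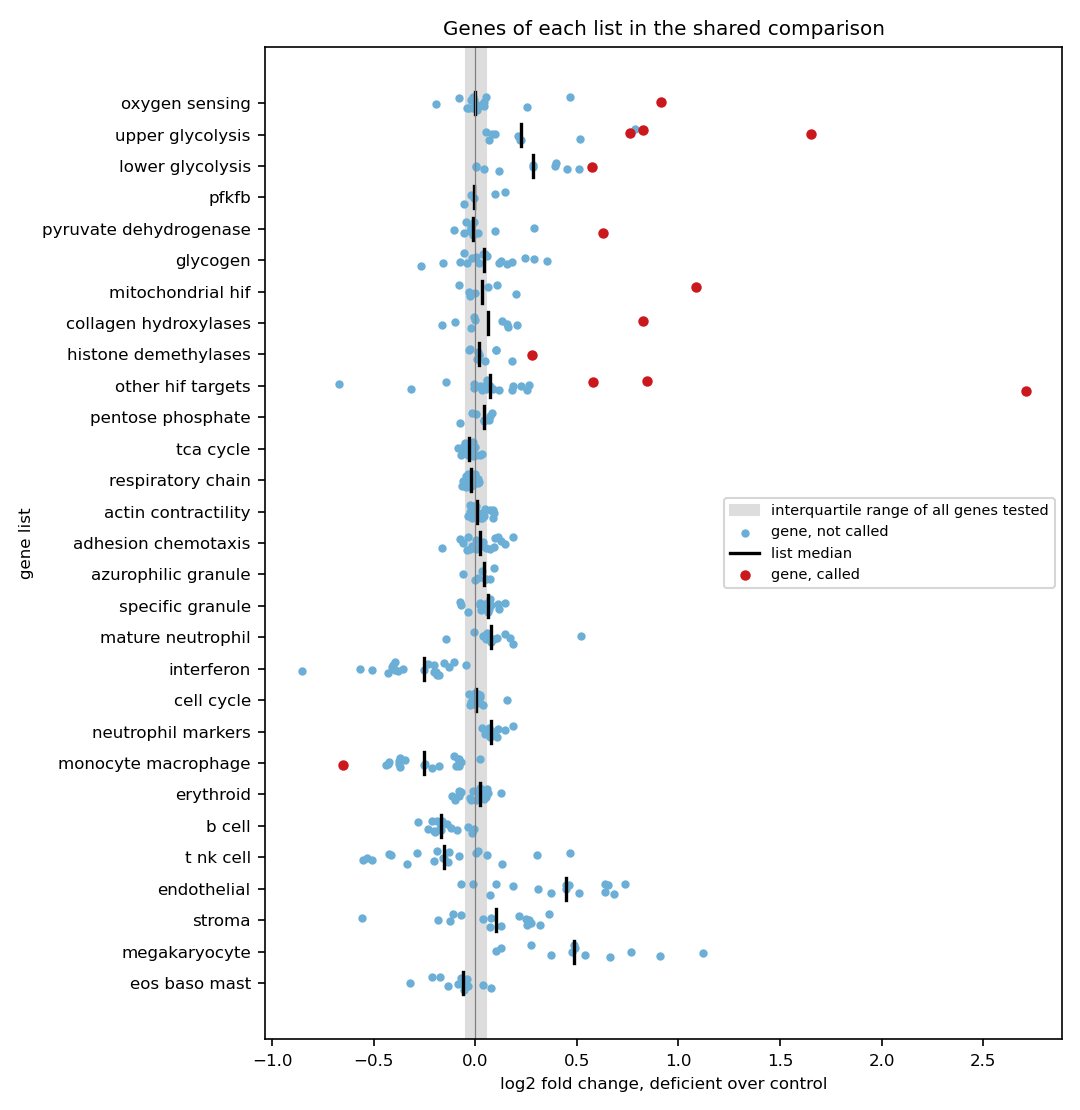
Log2 fold change of deficient over control libraries (horizontal axis) for each tested gene of the 29 gene lists (vertical axis). Blue points were not called, red points were called, black bars are list medians and the grey band is the interquartile range of all genes tested (-0.043 to 0.053). With all libraries both glycolysis lists lie above 0. Without P2KO 9, 3 of the 11 lower glycolysis genes lie below 0, while the median of that list goes from 0.28 to 0.35. The interferon list lies below 0, though 18 of its 21 genes lie above 0 with the monocyte and macrophage score as a covariate. That score also moves the medians of other lists, among them the neutrophil, erythroid, B cell and endothelial markers.

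The shared calls were examined in each line and each library. Groups did not overlap in both lines, with every deficient library above every control, for 28 genes (0.199% of genes tested), and below for 4 (0.0284%). Among these were 20 of the 21 higher and 1 of the 2 lower called genes. The 11 others included Acp1, a small tyrosine phosphatase (log2 fold change -0.55, SE 0.108 and edgeR adjusted p = 0.0548), Aif1, a macrophage and monocyte gene (log2 fold change -0.35, SE 0.0695 and edgeR adjusted p = 0.0606), Zfp654, a zinc finger gene (log2 fold change 0.29, SE 0.0562 and edgeR adjusted p = 0.0548), and Alkbh5, an RNA demethylase (log2 fold change 0.17, SE 0.0332 and edgeR adjusted p = 0.0548). These 4 are named after their values were seen. In each deficient library but P2KO 9, all 21 higher called genes exceeded all controls of the line, and in P2KO 9 20 did. The median log2 ratio of the 21 genes to the control mean ranged from 0.55 in P2KO 9 to 0.87 in P2H2KO 15. The genes were called from these same libraries, so these counts and ratios describe the calls and are not independent support for them.

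Fitted alone, the P2 line gave 6 calls among 13734 genes (0.0437%) and the P2H2 line 10 among 13435 (0.0744%), all of them higher and all among the 23, while 3.49% and 2.63% of genes had an unadjusted p under 0.05. Log2 fold changes in the P2 and the P2H2 line were 2.73 ± 0.18 and 2.70 ± 0.17 (SE) for Ankrd37, 0.75 ± 0.061 and 0.92 ± 0.076 (SE) for Pfkl, 0.75 ± 0.15 and 1.08 ± 0.1 (SE) for Egln3 and -0.59 ± 0.12 and -0.71 ± 0.17 (SE) for Siglec1. The difference between the lines, tested as the interaction of line and genotype, gave 0 calls among 14080 genes (0%) by edgeR, with a smallest adjusted p of 0.999, and also 0 with DESeq2 and with limma voom. The unadjusted p of this difference was under 0.05 for 212 genes (1.51%). For Egln3 the P2H2 effect minus the P2 effect was 0.34 ± 0.18 (SE), and for Kcnj10, at -0.38 ± 0.12 and -0.76 ± 0.14 (SE) in the lines, it was -0.37 ± 0.19 (SE). Hif1a was at -0.35 ± 0.13 and -0.03 ± 0.13 (SE) in the lines, and Prtn3, a protease gene of the azurophilic granule, was at -0.09 ± 0.18 and 0.28 ± 0.2 (SE). A difference that was not called does not show that the lines respond alike.

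**Figure D5:**
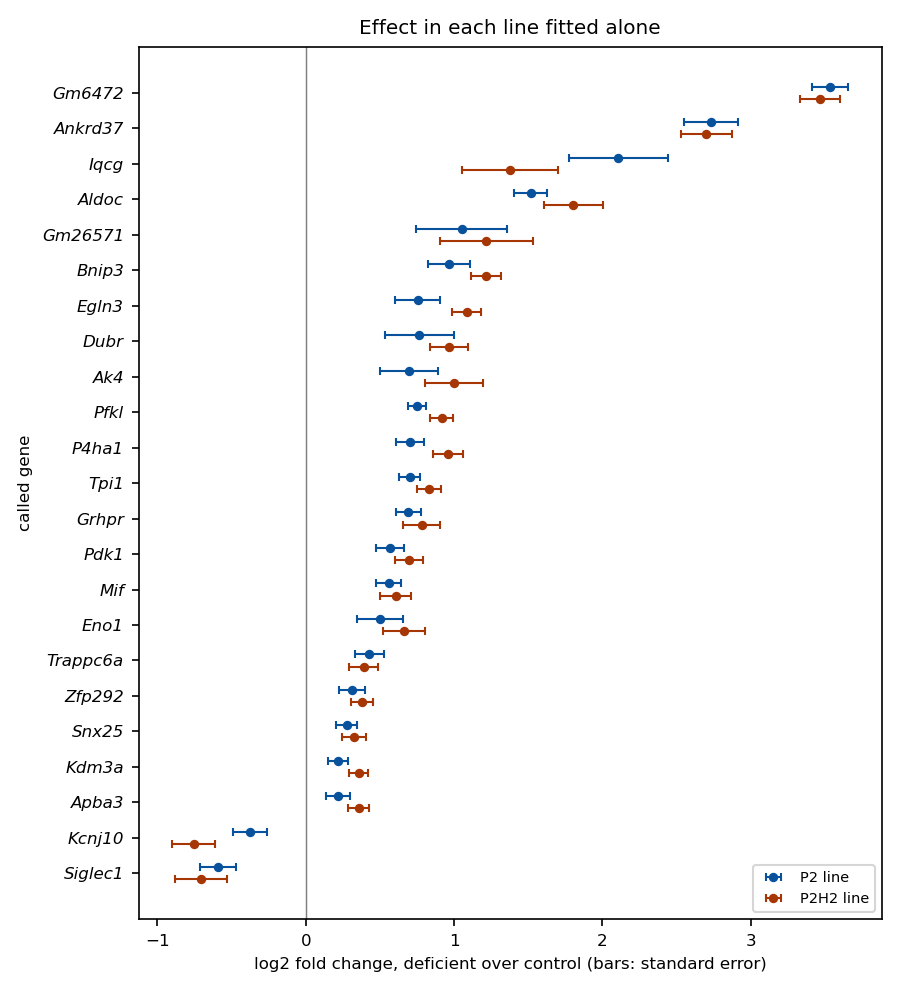
Log2 fold change of deficient over control libraries with its standard error (horizontal axis) for the 23 called genes (vertical axis), fitted in the P2 line alone (blue) and in the P2H2 line alone (brown). Both estimates lie on the same side of 0 for every gene, from 3.54 and 3.46 for Gm6472 to -0.59 and -0.71 for Siglec1. The genes were called from these same libraries.

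The called genes differed in how firmly they stood. In all 16 fits that left out 1 library, 18 of the 23 were called, and 9 of these were also called under all 10 other analyses of the full set: Gm6472, Ankrd37, Pfkl, Tpi1, Aldoc, Bnip3, P4ha1, Egln3 and Pdk1. Without P2KO 9 the number called rose from 23 to 44, of which 27 were higher and 17 lower, and all 23 were kept. The genes added included Slc2a1, Ldha and Aldoa among the higher and C1qc and Axl among the lower. Without P2H2WT 13 it was 18.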

How the data were processed

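RNA sequencing reads per gene were measured in 16 mouse libraries, 4 in each of 4 groups taken from the titles. The authors deposited 2 tables of raw counts, 1 per line, with 8 libraries each and 49585 Ensembl identifiers, per the file headers. HTSeq, a read counter, and the mouse build mm10 are named in the submitters' processing notes, without roles. The aligner, annotation release and use of strand are not given in the sources used here. Totals of 23450746 to 28601284 counts per library set the precision, and counts cover counting error only.

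The tables were joined on the identifiers. Symbols, coordinates and exons came from GENCODE M21 on GRCm38, the same assembly as mm10, which named 49326 identifiers, and the other 259 held 0.00714% of counts. Genes were filtered with filterByExpr, scaled with TMM and tested with the quasi-likelihood test of edgeR 4.0.16 (robust, two-sided, line as a block, R 4.3.3), with Benjamini-Hochberg adjustment over all genes tested and a threshold of 0.05. Standard errors were computed from the F statistic. CPM values were computed here from the deposited counts and the scaled library sizes. The interaction of line and genotype used the same filter. Targeted genes were tested by exact permutation of log2(CPM + 1) within lines. The procedure was tested on simulated data. Near-identical genes had at least 97% identity over at least 300 transcript bases in blastn 2.17.0. Promoters were those of RefSeq (GRCm38.p6).

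Named genes were the 3 targeted genes, up to 20 higher and 20 lower called genes with a mean of at least 1 CPM and the same sign in both lines (provisional names only among the 5 smallest p), every called list member, and the 2 members with the smallest p in each pathway, function and state list, of which 1 gene is not reported here. The comparison, its members and the 29 gene lists were chosen with earlier results of these data known. Alternatives were other size factors (RLE, upper quartile), other filters, DESeq2 1.42.0, limma 3.58.1 voom with quality weights, no line block, suffix or cell content scores as covariates, each line alone, and each library left out. No replicate number was shared between groups.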

Additional observations from a re-analysis of the deposited data

Results flagged for a closer look

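In 16 of the 288 pairs of a named gene and a group examined, 1 library lay further from the others of its group than the limit for 4 values (the gap to the nearest, over the range, was above the 95% critical value of Dixon's test). Chance alone gives about 1 in 20 such pairs. P2KO 6 held 6 of the 16. It was high for Dubr (33.4 CPM, others 16.3 to 17.4), Gm26571 (0.632, others 0.380 to 0.422), Zfp654 (51.7, others 40.3 to 41.6), Hif1a (90.5, others 72.6 to 73.3) and Pfkfb3 (82.8, others 54.8 to 58.7), and low for Acp1 (43.1, others 60.7 to 63.5). P2KO 9 was low for Alkbh5 (153.7, others 160.6 to 161.2) and Usp18 (16.7, others 20.7 to 21.3). Among controls, P2WT 10 was low for P4ha1 (27.0, others 32.9 to 33.5) and high for Itgam (277, others 197 to 209), P2WT 7 was high for F13a1 (1041, others 731 to 756), P2H2WT 14 for C1qa (95.8, others 74.96 to 77.7) and P2H2WT 16 for Gm26571 (0.426, others 0.179 to 0.202). In the P2H2KO group, replicate 15 was low for Grhpr (16.3, others 20.2 to 20.9), replicate 17 for Rock2 (74.0, others 85.0 to 86.6) and replicate 12 for Olfm4 (116, others 179 to 184). For Grhpr, P4ha1 and Dubr the outlying library did not bring the genotypes into overlap. No named gene had a called difference between the lines.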

How the results depend on the processing

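The shared comparison gave 23 calls with RLE size factors, 28 with upper-quartile factors, 19 without a filter, 22 with at least 10 counts in every library and 26 with the suffix as a covariate. It gave 68 with DESeq2 (39 higher, 29 lower), 42 with limma voom (30 and 12), 14 without the line block (14 and 0), 78 with erythroid and specific granule scores as covariates (48 and 30), 11 with the monocyte and macrophage score (11 and 0), 6 in the P2 line alone and 10 in the P2H2 line alone. DESeq2 and the erythroid and granule scores kept all 23 calls, voom 22, no line block 14 and the monocyte and macrophage score 10. Without 1 library there were 18 to 44 calls, the most without P2KO 9. The difference between the lines gave 0 calls in every fit run. No paired analysis was possible because the groups share no replicate number.

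Without 1 library the difference of the targeted genes ranged from -0.019 to 0.052 for Egln1, below 0 without P2KO 6 (-0.019) and P2H2KO 15 (-0.0034), from 0.12 to 0.41 for Epas1 and from -0.25 to -0.14 for Hif1a. Hif1a had an exact permutation p of 0.0159 without P2H2KO 15 (-0.25). Other genes that changed sign were not called. They were, with voom, Pfkfb4 (-0.0099), Itgam (-0.069) and Egln1 (-0.024). With the monocyte and macrophage score they were Ifit3 (0.35), Plod1 (0.061), Hif1a (0.062), Icam1 (0.10), Rock2 (-0.063), Sdhc (0.059), Rock1 (-0.11), Ccl6 (0.16), Rpia (-0.0086), Mki67 (-0.69), Ly6c2 (0.51), F13a1 (0.45) and Bub1 (-0.21). In the P2 line alone they were Ms4a3 (-0.021) and Prtn3 (-0.087), and in the P2H2 line alone Ccl6 (0.013), Ly6c2 (0.050), F13a1 (0.031) and Bub1 (-0.031). Without P2KO 6 Itgam was at -0.021 and Egln1 at -0.014, and without P2KO 9 they were at 0.19 and 0.060. F13a1 was at 0.015 without P2KO 9 and also without P2H2WT 16 (0.015). The cause was not tested. Depth limits Iqcg, Gm26571 and other genes near or under 1 CPM most.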
